A study of Sus scrofa with 180 samples.

Results

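The histones and chromatin modifiers described here are the genes whose symbols begin with HIST, H2AF, H3F, HDAC, KDM, KAT, SETD, CHD and a digit, SMARC, MLL, BRD or SIRT. The study's lists of genes overrepresented in the Longissimus (LM) or in the Semimembranosus (SM) were used as a map from probe to gene. Of the 3481 genes named there, 35 met the rule, with 41 probes, and all 41 probes passed the filters on spot quality. No symbol at hand began with H3F or BRD. The list of LM held 18 of the genes with 24 probes, and the list of SM held 17 genes with 17 probes. The last 400 rows of the list of SM were not used here, and may name further genes, also of H3F or BRD. Every count of genes by muscle below can therefore miss genes of SM and lean toward LM. The genes were thus chosen by the measured difference between LM and SM in these same pigs, so the LM and SM values below describe the genes and are given without a p value.

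RNA was measured in LM, the long muscle of the back, and in SM, a muscle of the ham, of 90 pigs, with 1 single-colour array for each muscle of each pig. Both groups are the same untreated domestic pigs, which came from sire families of an intercross between terminal sire lines, shared the wild type genotype at the HAL and RN loci, and were sampled shortly after death at market weight. The labels give the muscle and the pig, and give neither sex, sire, weight nor age. Each sample was a piece of whole muscle taken near its surface, so fewer cells of a type and less RNA per cell cannot be told apart. The values are processed signals on the log2 scale minus the median of the array. A value of 1 or more above another for the same probe is a fold change (FC) ratio of 2 or more.

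Histones are the proteins on which DNA is wound, and H1 linker histones bind the DNA between the wound units. Writers add acetyl or methyl groups to histones, erasers remove them, and remodellers use ATP to slide or evict histones. In skeletal muscle, acetylases and deacetylases act with the MyoD and MEF2 factors on muscle genes, and sirtuins tie deacetylation to the supply of NAD+. Canonical histone genes are mostly transcribed in dividing cells, while variant histones are also made in resting cells such as muscle fibres. Whether the linear amplification used for labelling took up the RNA of canonical and variant histones alike was not tested.

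Of the 15198 probes on the array, 10987 were kept. The share of probes well above background ran from 69.2% to 99.9% of the probes in LM and from 63.4% to 83.3% in SM. The LM arrays lay on 21 slides and the SM arrays on 14 slides, with no slide and no scan day holding both muscles, so that slide, scan day and muscle cannot be told apart. Alpha actin (ACTA1), a defining protein of muscle fibres, had means of 8.31 and 9.46 for its 2 probes in LM and of 9.14 and 10.16 in SM, so the labelled tissue held fibre RNA in both groups. The arrays also differed in the signal of probes with many C in their first 15 bases. A C-rich index was taken for each array as the mean log2 signal of 212 probes with 8 or more C minus that of 3939 probes with 2 or fewer, each probe centred on its own mean and the 41 probes left out. This index ran from -1.09 through a median of -0.34 to 0.38 in LM and from -0.30 through 0.37 to 1.14 in SM, and was higher in SM in 88 of 90 pigs. The ranges overlap, but most SM arrays lie above most LM arrays.

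The probes are 60 bases long. Their first 30 bases are shown for the 3 probes with 8 or more C, which are the C-rich members, and for the 4 probes whose LM and SM ranges did not overlap. Capitals mark each C among the first 15 bases, and letters are in the order of the scanner files.
HIST1H2AB CK463887.1_1284: CCtCaCCtCCCtCagccgcatacacaactt
KDM5B BM190082.1_1185: CCCtCCtCtCCtgttttttggtatcttgta
KDM6B CF181520.1_1470: CagCCCttCCaCCCCattggcagctcccct
SETD5 BP435274.1_898: aCatggtggaagataatgtgagagaaagaa
SETD5 BP443659.1_463: ttgttatCattttagaccacaatcaaggat
CHD2 BM675842.1_642: gtgCtgtgataataacaaccaagacagggt
HIST2H2BF CF365705.1_1732: agttCCCtggtggtttagtagttaagattt
HIST1H2AB has 9 such C, KDM5B 8 and KDM6B 10, while the SETD5 and CHD2 probes shown have 1 each and HIST2H2BF has 3. No pair of the 41 probes shared a run of more than 11 bases. Matches of these probes to transcripts of other genes or to repeats were not searched.

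Each class of chromatin gene was split between the muscles. Histones were higher in LM for 3 genes and in SM for 4, writers for 4 and 2, erasers for 3 and 5, and remodellers for 5 and 2. The median difference, LM minus SM on the log2 scale, was -0.29 over 7 histone probes, 0.70 over 10 writer probes, -0.52 over 8 eraser probes and 0.45 over 8 remodeller probes, beside -0.068 over all probes kept. Of the writer probes, 5 are of SETD5, so this gene weighs heavily in their median. SETD5 and MLL5 are classed as writers by gene family, whether or not they methylate histones themselves. By the limma fit, 40 of the 41 probes were called at an adjusted p of 0.05 or less, 23 in LM and 17 in SM, against 83.5% of all probes kept (35.7% higher in LM and 47.7% higher in SM). With no filter on dim probes, 7310 of all probes were called higher in LM and 5460 in SM, where the filtered table gave 3925 and 5244. These calls are what the choice of the genes used, and nothing is read from their count. The FC ratio exceeded 2 toward LM for probes of SETD5 (not all of them), CHD2, SETD7 and HIST2H2BF. Toward SM it did so for the C-rich probes of HIST1H2AB and KDM5B. The ranges of LM and SM did not overlap for 4 of the 41 probes, where 2.08% of all probes kept had ranges apart.

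**Figure D1:**
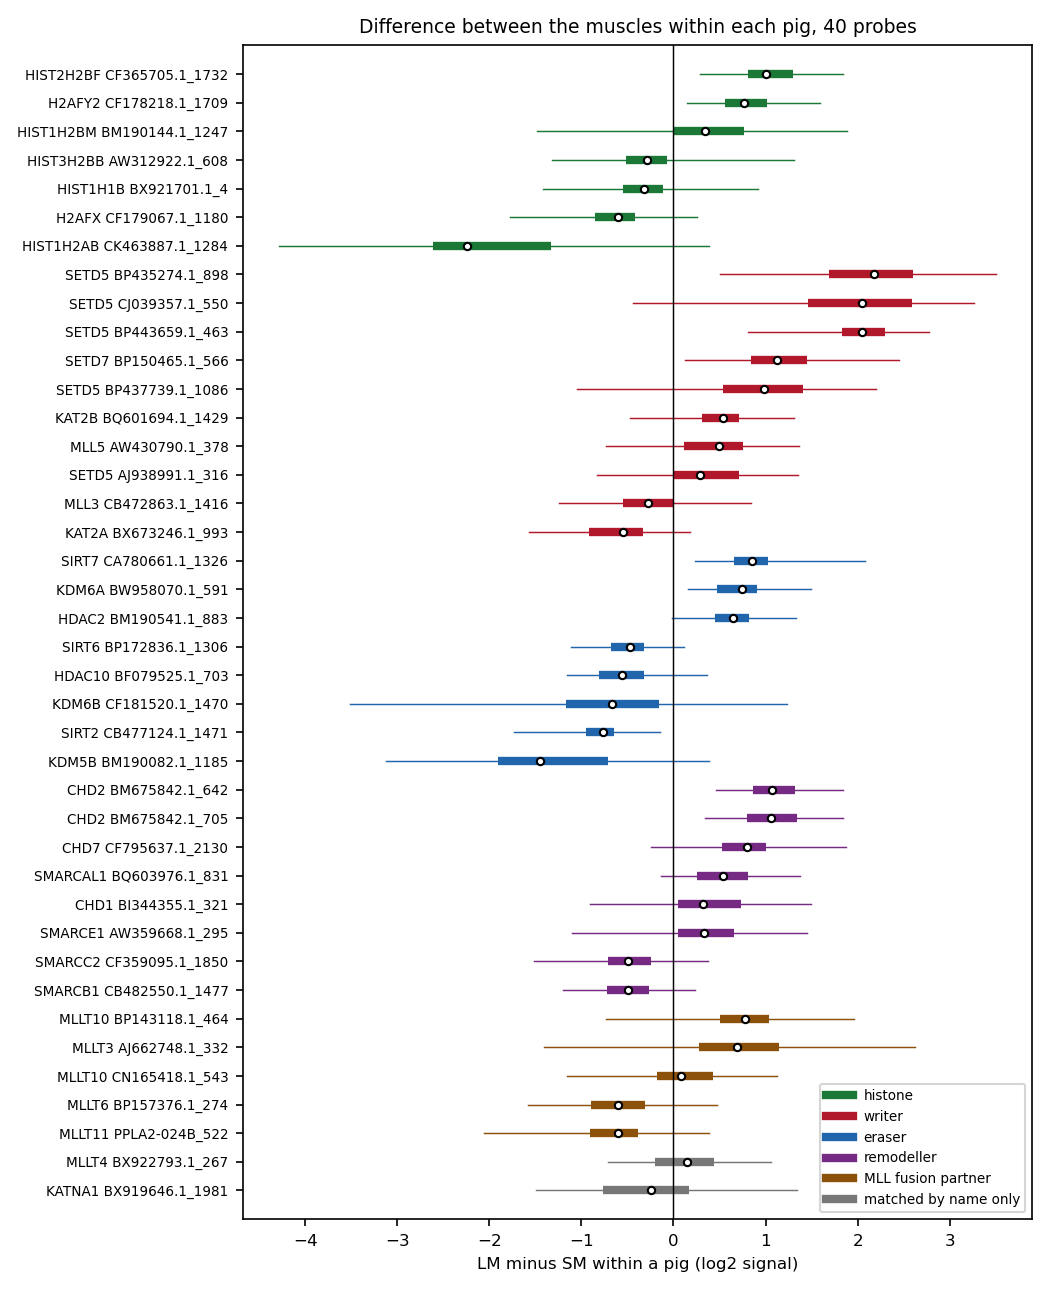
Difference between LM and SM within each pig for 40 of the 41 probes, on the log2 scale (x axis), by class (colour). The circle is the median over pigs, the thick bar the middle part between the quartiles and the thin line the full range; the SETD5, SETD7, CHD2 and HIST2H2BF probes lie on the side of LM and HIST1H2AB and KDM5B farthest on the side of SM.

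Among the histones, the H2B genes did not go one way, but the gene on the side of SM was measured with a dim probe. HIST2H2BF, a core histone of the H2B family, had a lowest, median and highest signal of 1.46, 1.94 and 2.32 in 90 LM arrays and of 0.19, 0.89 and 1.43 in 90 SM arrays. Every LM array was above every SM array, and the FC ratio was 2.07 (difference 1.05, SE 0.034). A related gene, HIST1H2BM, ran from 1.33 through 2.75 to 4.03 in LM and from 1.02 through 2.39 to 3.25 in SM. Its ranges overlap widely, and LM was higher in 68 of 89 pigs with an FC ratio of 1.29. The third H2B gene, HIST3H2BB, was higher in SM, with overlapping ranges and an FC ratio of 1.23 in 67 of 81 pigs. Its probe was dim, with a mean of -3.29 in LM and 8 LM spots not well above background. With the C-rich index in the fit, described further on, its difference went from -0.29 to -0.14 (SE 0.077). That of HIST1H2BM went from 0.37 to 0.19 (SE 0.12). Both genes kept their signs with smaller differences and larger SE, so little can be said from them of the split between H2B genes.

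HIST1H2AB, a canonical H2A gene, showed the widest gap toward SM. It ran from -0.83 through 0.71 to 3.35 in 76 LM arrays and from 1.17 through 2.95 to 4.80 in 90 SM arrays. SM was higher in 71 of 76 pigs with an FC ratio of 4.32, yet the highest LM arrays reached well into the range of SM. This probe also varied most between arrays of a muscle among the 41, with an SD of 0.87 in LM and 0.75 in SM, and 14 of its LM spots were lost as not uniform. With the failed spots kept, its difference narrowed from -2.11 to -1.77. Its probe is one of the 3 C-rich ones, and the C-rich index was higher on the same SM arrays.

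The remaining histones were a linker histone and variant H2A genes. H2AFX, the variant that is phosphorylated around DNA breaks, ran from 1.08 through 1.76 to 2.80 in LM and from 1.89 through 2.37 to 3.26 in SM, with an FC ratio of 1.52 toward SM in 79 of 85 pigs. H2AFY2, which encodes macroH2A.2, a variant of silent chromatin, went the other way: its median was -1.38 in LM and -2.17 in SM, and LM was higher in all 90 pigs with an FC ratio of 1.73. HIST1H1B, which encodes the linker histone H1.5, had medians of -0.69 in LM and -0.31 in SM and an FC ratio of 1.26 toward SM in 71 of 87 pigs. The groups overlap for each of these probes.

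SETD5, a SET domain protein classed with the writers by its family, had the widest gap of that class, and its 5 probes did not give one size. Probe BP443659.1_463 ran from 4.99 through 5.48 to 5.87 in LM and from 2.57 through 3.41 to 4.58 in SM, so that every LM array was above every SM array, with an FC ratio of 4.12 (difference 2.04, SE 0.040). Probe BP435274.1_898 ran from -0.81 through -0.16 to 0.71 in LM and from -3.49 through -2.39 to -0.83 in SM, also without overlap, with an FC ratio of 4.45. Probe CJ039357.1_550 had an FC ratio of 4.13 with LM higher in 64 of 66 pigs, and 24 of its SM spots were not well above background.

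The other SETD5 probes had narrower gaps. Probe BP437739.1_1086 had medians of -0.72 in LM and -1.75 in SM, overlapping ranges and an FC ratio of 1.86 in 90 pigs. Probe AJ938991.1_316 was near the background, with 28 SM spots not well above it, and its medians of -3.14 and -3.46 gave an FC ratio of 1.24 with LM higher in 45 of 61 pigs. Under normexp background correction its difference was -0.029, and those of BP435274.1_898 and CJ039357.1_550 fell to 1.43 and 1.14, where they had been 2.15 and 2.05. That of BP437739.1_1086 was 0.52, where it had been 0.89, and that of BP443659.1_463 was 2.16.

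**Figure D2:**
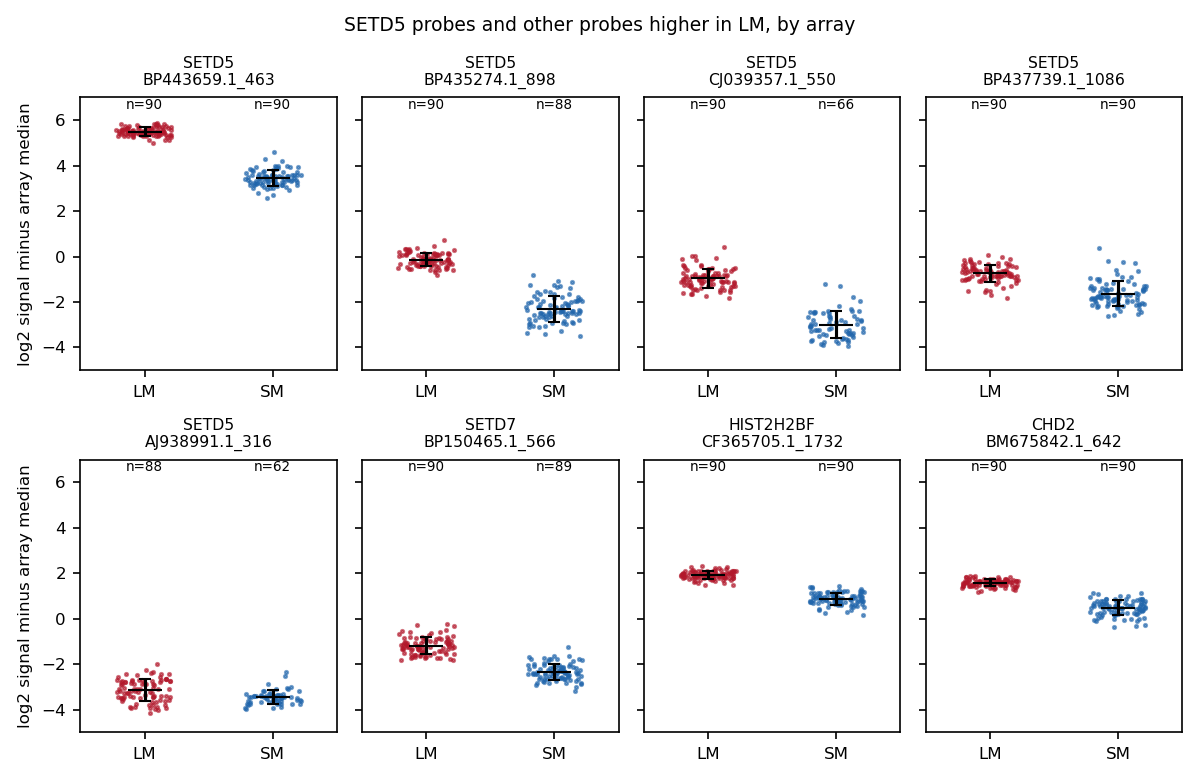
Signal of each array (points, log2 signal minus the array median, y axis) for the 5 SETD5 probes, SETD7, HIST2H2BF and CHD2 in LM and SM, with the mean and SD over arrays (black) and the number of arrays. The groups are apart for SETD5 BP443659.1_463, SETD5 BP435274.1_898, HIST2H2BF and this CHD2 probe, and overlap for the others.

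The rest of the writers held pairs of related genes on opposite sides. SETD7, a methylase of lysine 4 of histone H3 that is known to act with MyoD in muscle differentiation, had a median of -1.22 in LM and -2.36 in SM and an FC ratio of 2.20, with LM higher in all 89 pigs. KAT2B (PCAF), an acetylase that acts with MyoD, ran from 3.66 through 4.33 to 4.82 in LM and from 3.04 through 3.81 to 4.39 in SM. Its FC ratio was 1.42 toward LM in 86 of 90 pigs. KAT2A (GCN5), its close paralog, ran from -0.19 through 0.68 to 1.58 in LM and from 0.85 through 1.28 to 1.87 in SM, with an FC ratio of 1.51 toward SM in 81 of 90 pigs. The ranges of both acetylases overlap.

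MLL5 (KMT2E) had an FC ratio of 1.33 toward LM, and MLL3 (KMT2C), a methylase of enhancers, one of 1.18 toward SM. Both probes were dim, and MLL3 was measured in both muscles of 48 pigs.

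Of the deacetylases, HDAC2, a class I enzyme of corepressor complexes, ran from 0.34 through 0.89 to 1.39 in LM and from -0.23 through 0.31 to 0.73 in SM. LM was higher in 89 of 90 pigs with an FC ratio of 1.55. HDAC10, a class II enzyme that also deacetylates polyamines, had medians of -0.91 in LM and -0.39 in SM and an FC ratio of 1.46 toward SM in 85 of 90 pigs. The sirtuins, which need NAD+, were split as well. SIRT2, a mostly cytoplasmic deacetylase, ran from 2.21 through 2.59 to 2.97 in LM and from 2.89 through 3.40 to 4.05 in SM, so that its groups overlapped narrowly, and SM was higher in all 89 pigs with an FC ratio of 1.74.

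SIRT6, a nuclear sirtuin of DNA repair and glucose metabolism, had medians of 0.54 in LM and 1.01 in SM, with an FC ratio of 1.40 toward SM. SIRT7, the sirtuin of the nucleolus, had medians of -0.07 and -0.95 and was higher in LM in all 89 pigs with an FC ratio of 1.81. The groups overlap for both.

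The demethylases that met the rule were KDM5B, which acts on lysine 4 of histone H3, and the paralogs KDM6A and KDM6B, which act on lysine 27. KDM6A (UTX) had medians of -2.67 in 89 LM arrays and -3.34 in 54 SM arrays, with LM higher in all 54 pigs and an FC ratio of 1.62. Of its SM spots, 36 were not well above background, and under normexp background correction its difference fell from 0.70 to 0.17. KDM6B (JMJD3) ran from 4.87 through 6.20 to 7.96 in LM and from 5.94 through 6.87 to 8.48 in SM. Its FC ratio was 1.62 toward SM, with SM higher in 63 of 81 pigs and wide overlap. KDM5B ran from 1.22 through 2.68 to 4.49 in LM and from 3.00 through 4.10 to 5.49 in SM, with an FC ratio of 2.64 and SM higher in 75 of 80 pigs. The probes of KDM6B and KDM5B are C-rich, and each lost 9 LM spots to the quality filters. With the failed spots kept, their differences narrowed from -0.70 to -0.58 and from -1.40 to -1.23. With the C-rich index in the fit, described further on, the difference of KDM6B turned from -0.70 to 0.78, toward LM, and that of KDM5B went from -1.40 to -0.11.

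CHD2, a chromodomain helicase that is known to deposit the H3.3 variant at muscle genes, was measured with 2 probes. Probe BM675842.1_642 ran from 1.18 through 1.60 to 1.87 in LM and from -0.35 through 0.50 to 1.15 in SM, without overlap, and its FC ratio was 2.15. Probe BM675842.1_705 ran from 1.47 through 1.93 to 2.22 in LM and from -0.05 through 0.89 to 1.57 in SM, with an FC ratio of 2.13. LM was higher in all 90 pigs on both probes. Both come from one transcript sequence, as their shared name shows, so they are not independent measurements of the gene.

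CHD7, a remodeller of enhancers, had an FC ratio of 1.74 toward LM, and CHD1, which binds methylated lysine 4 of histone H3, one of 1.29. SMARCAL1, an annealing helicase of stalled replication forks, had an FC ratio of 1.45 toward LM. The subunits of the SWI/SNF complex were split. SMARCB1, a core subunit, ran from 2.07 through 2.68 to 3.12 in LM and from 2.60 through 3.14 to 3.60 in SM, with an FC ratio of 1.42 toward SM. SMARCC2, a scaffold subunit, had an FC ratio of 1.40 toward SM in 80 of 88 pigs, and SMARCE1, a DNA-binding subunit, one of 1.26 toward LM in 68 of 89 pigs. The groups overlap for each of the 3 subunits.

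The MLLT genes are named as fusion partners of MLL in leukaemia. MLLT3, a reader of acetylated histones in the super elongation complex, had an FC ratio of 1.67 toward LM, and MLLT6 and MLLT11 had ratios of 1.51 and 1.59 toward SM. The 2 probes of MLLT10, a partner of the DOT1L methylase, gave different sizes: BP143118.1_464 had an FC ratio of 1.71 with LM higher in 88 of 90 pigs, and CN165418.1_543 one of 1.07 with LM higher in 54 of 90. The latter was the one probe of the 41 that was not called, and its difference of 0.10 was the smallest. With the difference of 0.14 for MLLT4, it lay just inside the lists, and the probes just outside them have no name here. MLLT4 (afadin, a junction protein) and KATNA1 (of a microtubule-severing enzyme) met the rule by their letters and are not chromatin proteins.

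The count of C in the first 15 bases, which the rule did not use, differed between the genes on each side. It had a median of 2 (range 1 to 5) over the 24 probes of the LM list and of 6 (range 2 to 10) over the 17 probes of the SM list, while it was 3 for all probes called higher in LM and 3 for those called higher in SM. Among all probes kept, 215 had 8 or more C, and 91.6% of them had the higher mean in SM, against 56.3% of all probes kept. Their median difference was -0.67 on the log2 scale.

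The slope of each probe on the C-rich index, fitted with the muscle as a term, is a measure within the muscles. It passed the limma test at an adjusted p of 0.05 or less for 23 of the 41 probes (15 positive, 8 negative), against 46.4% of all probes kept. HIST1H2AB had a slope of 2.54 (SE 0.070, limma adjusted p 2.31e-78), KDM6B one of 1.87 (SE 0.068, limma adjusted p 3.14e-63) and KDM5B one of 1.64 (SE 0.063, limma adjusted p 7.64e-59), in log2 signal per unit of the index. These 3 probes therefore tracked the index among arrays of the same muscle. The other positive slopes that passed ran from 0.11 to 0.74 and did not follow the count of C closely. MLLT6, HIST1H1B, MLLT11 and HDAC10, with 5 or 6 C each, had slopes of 0.74, 0.54, 0.51 and 0.42. H2AFY2 (3 C), MLL3 (2 C), MLLT4 (4 C), SETD5 AJ938991.1_316 (1 C) and KATNA1 (2 C) had slopes of 0.37, 0.37, 0.33, 0.32 and 0.30. SIRT7, with 5 C, had a negative slope of -0.21, and the slopes of H2AFX (6 C, 0.11) and SIRT6 (7 C, 0.074) were not called. The 2 CHD2 probes had slopes of -0.42 and -0.45, so their signal was lower on arrays of high index. The slope was not called for HIST2H2BF (-0.012, SE 0.054) or for SETD5 BP443659.1_463 (0.027, SE 0.065).

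**Figure D3:**
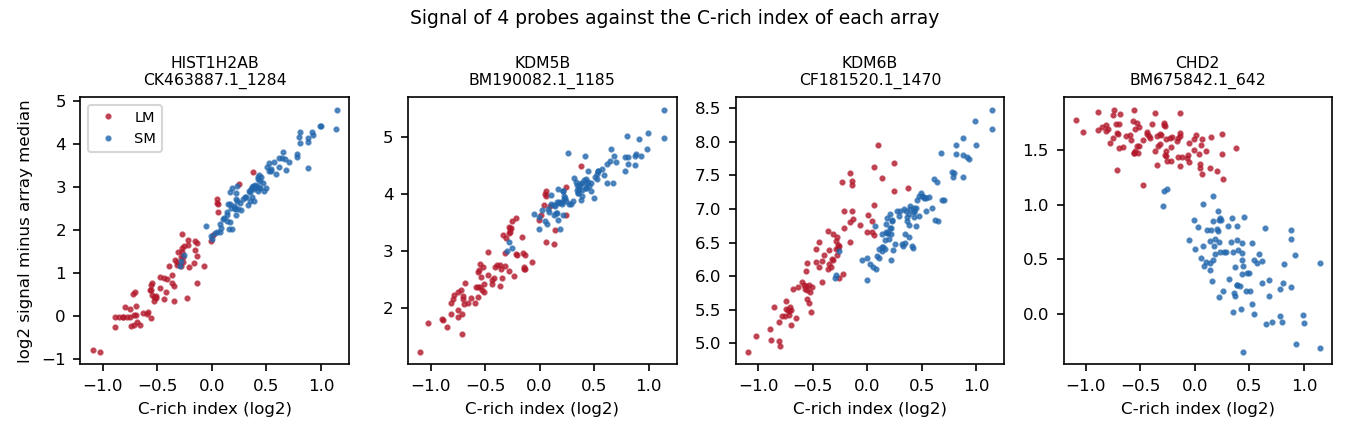
Signal of the 3 C-rich members and of CHD2 BM675842.1_642 (log2 signal minus the array median, y axis) against the C-rich index of the array (log2, x axis), 1 point per array, LM red and SM blue. HIST1H2AB, KDM5B and KDM6B climb with the index within each muscle, and CHD2 is lower in SM than in LM at the indexes that both muscles share.

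With the index beside the muscle in the fit, 21 of the 24 probes of the LM list were called in the same direction, and 9 of the 17 probes of the SM list. In all, 31 of the 41 were called, against 73.9% of all probes kept. Over all probes kept, 3663 were called higher in LM and 4452 in SM with the index, against 3925 and 5244 without it. The genes were chosen by this same contrast, so nothing is read from the counts of calls among the 41. The difference of HIST1H2AB was then -0.021 (SE 0.071), where it had been -2.11, and that of KDM5B was -0.11 (SE 0.064), where it had been -1.40. KDM6B turned to LM with a difference of 0.78 (SE 0.068), and HIST1H1B and MLL3 changed sign with differences of 0.078 and 0.040 that were within 2 SE of 0. Such a change of sign was seen in 3 of the 41 probes and in 14.7% of all probes kept.

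Not all related genes kept their sides in that fit. MLL5 remained higher in LM (0.42) while MLL3 changed sign. The H2B genes HIST1H2BM (0.19, SE 0.12) and HIST3H2BB (-0.14, SE 0.077) kept their signs, with smaller differences and larger SE than without the index. The acetylases, deacetylases and sirtuins also kept their sides. KAT2B remained higher in LM (0.30, SE 0.052) and KAT2A in SM (-0.59, SE 0.065), HDAC2 in LM (0.41) and HDAC10 in SM (-0.23), SIRT7 in LM (0.70) and SIRT2 and SIRT6 in SM (-0.72 and -0.43). SETD5 BP443659.1_463 (2.06), HIST2H2BF (1.04), H2AFY2 (1.07), SETD7 (1.06) and the CHD2 probes (0.78 and 0.76) remained higher in LM, and H2AFX (-0.52), SMARCB1 (-0.43) and SMARCC2 (-0.35) in SM. The median over histone probes was 0.078 with the index and that over eraser probes 0.15, where both had been below 0 without it. That histone median is the value of the HIST1H1B probe (SE 0.075), and the eraser probes ran from -0.72 to 0.78. Neither median therefore places its class on a side. The medians of writers (0.74) and remodellers (0.42) remained on the side of LM. The writer median again rests in large part on the SETD5 probes. Since the index itself differed between the muscles, its part in the differences was not tested.

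**Figure D4:**
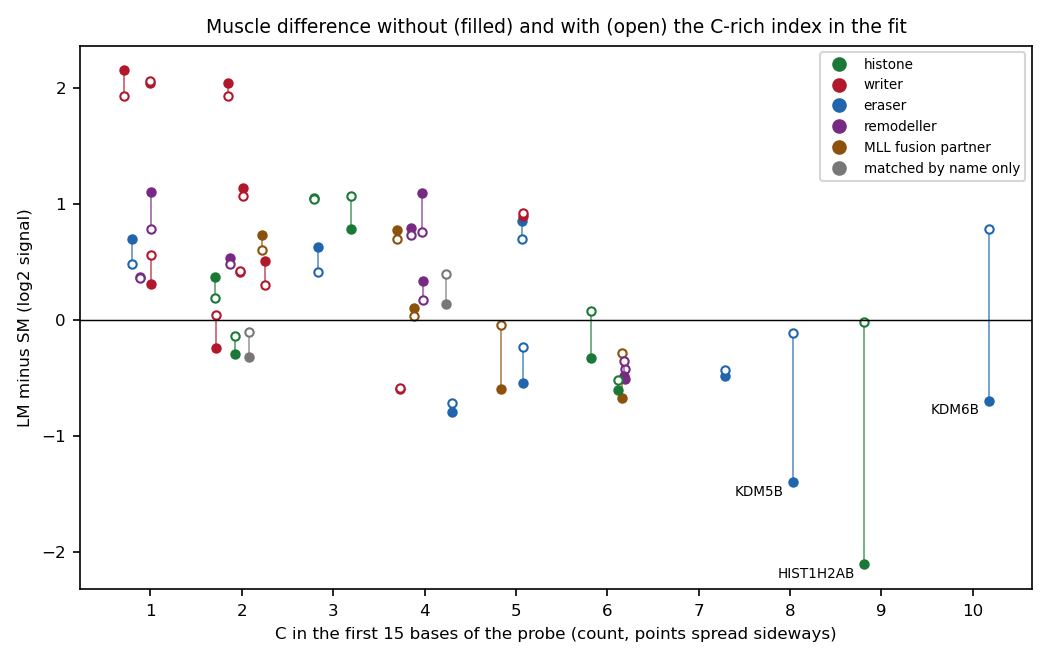
Difference between LM and SM (log2, y axis) of 40 of the 41 probes without (filled) and with (open) the C-rich index in the fit, by the count of C in the first 15 bases of the probe (x axis) and by class (colour). The members with 8 or more C move most, KDM6B across 0, and those of 1 to 3 C move less.

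The 2 muscles of a pig were compared to see whether pigs that were high for a gene in LM were also high in SM, which the choice of the genes did not use. The limma test of the pig effect called 1 of the 41 probes, MLLT10 CN165418.1_543 (adjusted p 0.0258), against 2.48% of all probes kept. The median correlation of LM with SM over pigs was 0.071 for the 41 probes and 0.066 for all probes kept. Of the 41 correlations, 9 had a permutation p of 0.05 or less before any adjustment, and all 9 were positive, against 13.1% of all probes kept (12% positive). MLLT10 CN165418.1_543 had Pearson's r of 0.34 (permutation p 0.00117) and Spearman's rho of 0.34 (permutation p 0.00131) over 90 pigs, and r was 0.34 without the 2 pigs farthest from the LM median. With the mean of each slide subtracted, r was 0.076, and the pig effect within slides had a limma adjusted p of 0.324.

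CHD2 BM675842.1_642 had r of 0.31 (permutation p 0.00259) and rho of 0.27 (permutation p 0.0102) over 90 pigs, with r 0.28 without the 2 farthest pigs and 0.21 within slides. The histones came next. H2AFX had r of 0.31 (permutation p 0.00398) and rho of 0.27 (permutation p 0.0128) over 85 pigs, 0.26 without the 2 farthest pigs and 0.21 within slides. HIST1H1B had r of 0.31 (permutation p 0.00404) and rho of 0.30 (permutation p 0.0045) over 87 pigs, 0.33 without those 2 pigs and 0.13 within slides. HIST3H2BB had rho of 0.32 (permutation p 0.00406) and r of 0.25 (permutation p 0.0264) over 81 pigs, with r 0.33 without 2 pigs and 0.012 within slides. Neither CHD2 nor these histones passed the limma test of the pig effect, with adjusted p of 0.163, 0.0869, 0.0533 and 0.156. With normexp background correction, 7 of the 41 probes passed it, HIST1H1B, HIST3H2BB, H2AFY2 and CHD2 BM675842.1_642 among them, against 7.81% of the probes tested. SETD7 had r of 0.21 (permutation p 0.0441) and rho of 0.24 (permutation p 0.0221) over 89 pigs, 0.22 without the 2 farthest pigs and 0.18 within slides, while r was -0.024 for SETD5 BP443659.1_463, 0.0078 for SIRT2 and 0.039 for KDM5B. The rest of the 9 were CHD2 BM675842.1_705, H2AFY2 and MLLT6, with r of 0.22 (permutation p 0.036), 0.22 (permutation p 0.0355) and 0.21 (permutation p 0.045), 0.20, 0.24 and 0.19 without 2 pigs, and 0.18, 0.11 and 0.13 within slides. Their rho of 0.17, 0.12 and 0.15 had permutation p of 0.119, 0.263 and 0.165. Within slides, 0 of the 41 probes and 0.255% of all probes kept passed the pig test, and 4 of the 41 correlations exceeded 0.2, against 4.77% of all probes kept.

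**Figure D5:**
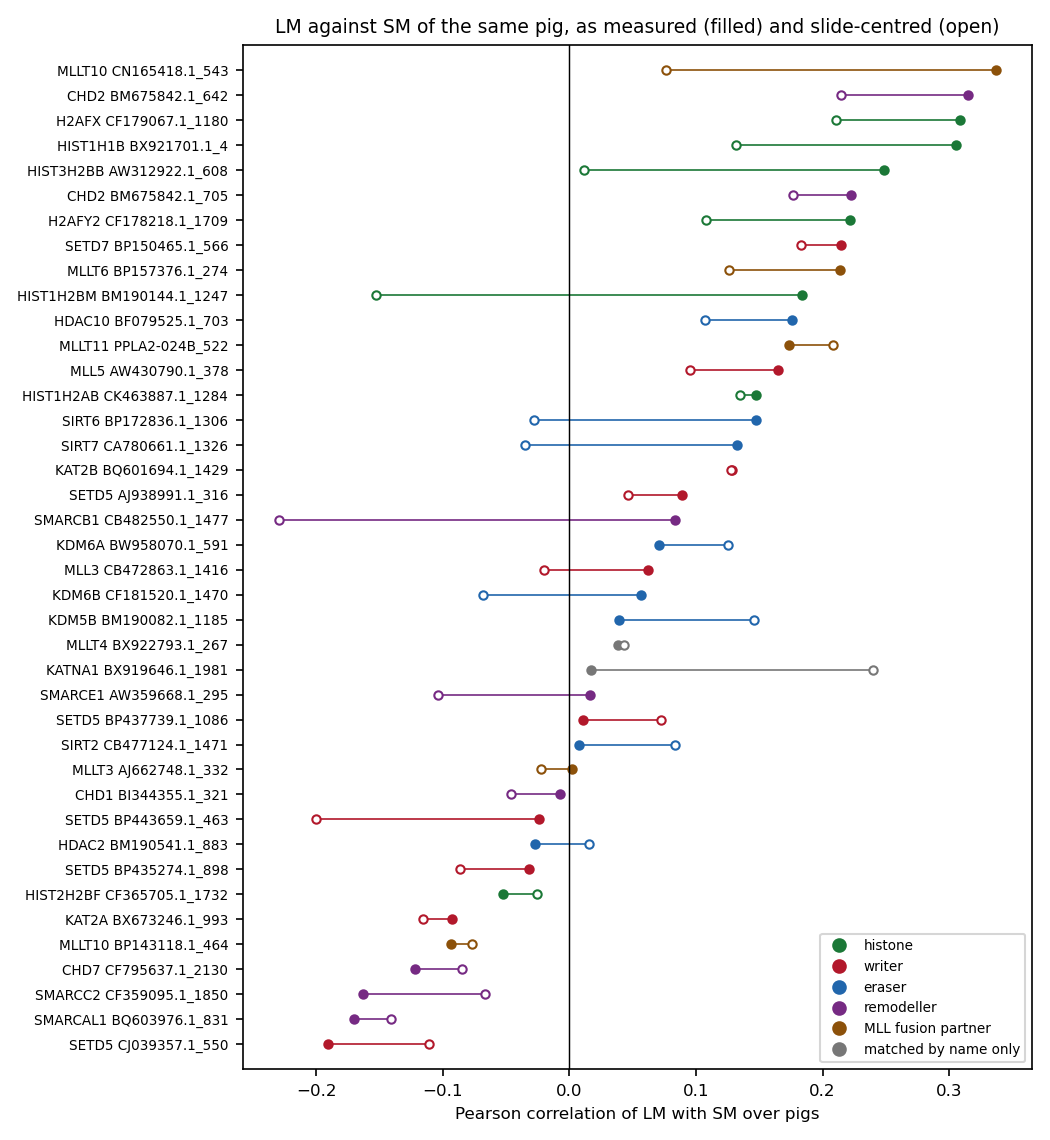
Pearson correlation of LM with SM over pigs (x axis) for 40 of the 41 probes, as measured (filled) and with the mean of each slide subtracted (open), by class (colour). As measured, r runs from -0.19 for SETD5 CJ039357.1_550 to 0.34 for MLLT10 CN165418.1_543, and with slide means subtracted it lies between -0.23 and 0.24.

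Slides within a muscle differed for many of the genes. On slides with 3 or more arrays, the limma F test of slide called 29 of the 41 probes in LM, against 58.8% of all probes kept, and 9 in SM, against 14% of all probes kept. All 7 histone probes were called in LM and 3 of them in SM. The lowest adjusted p among the 41 in LM was that of SETD5 AJ938991.1_316 (limma adjusted p 7.31e-21), the dim SETD5 probe, followed by MLLT4 (limma adjusted p 8.64e-14) and HIST3H2BB (limma adjusted p 8.92e-14), which had 6 and 8 LM spots not well above background. SMARCAL1, SIRT2, SIRT7, KDM6A, KAT2B and SMARCC2 were among the genes whose probes passed this test in neither muscle.

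How the genes varied together was described by correlations over the arrays of 1 muscle with slide means subtracted. The median over the 820 pairs of the 41 probes was -0.0098 in LM and 0.071 in SM, beside 0.0040 and 0.0051 over all pairs of probes kept. Pairs of the SM list had a median of 0.049 in LM and 0.24 in SM, and pairs of the LM list 0.033 and 0.082. All these pairs share the arrays, their depth and their base composition. A fixed set of 15 pairs, those of 1 gene and those of probes with 8 or more C, was taken further in each muscle, which made 30 relations. HIST1H2AB and KDM5B had r of 0.94 and rho of 0.92 over 74 LM arrays and r of 0.91 and rho of 0.89 over 90 SM arrays, with 0.91 and 0.94 within slides. Without the 2 farthest arrays r was 0.93 in LM and 0.90 in SM. For both muscles the permutation p of r and rho was 1e-05, the smallest that 100000 permutations can give. The correlation of KDM6B with each of these genes lay between 0.74 and 0.90 as measured (rho between 0.72 and 0.89, permutation p 1e-05 each), between 0.72 and 0.90 without the 2 farthest arrays and between 0.79 and 0.90 within slides.

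The CHD2 probes rose and fell together, with r of 0.94 over 90 LM arrays and 0.97 over 90 SM arrays, rho of 0.94 and 0.97 (permutation p 1e-05 each), 0.93 and 0.97 without the 2 farthest arrays, and 0.95 and 0.98 within slides. The SETD5 probes did so in part. Of their 10 pairs, 2 in LM and 6 in SM had a permutation p of r of 0.05 or less before adjustment, all positive, and r ran from -0.095 to 0.60 in LM and from -0.035 to 0.69 in SM. The strongest pair in SM, BP443659.1_463 with BP437739.1_1086, had r of 0.69 and rho of 0.59 (permutation p 1e-05 each), 0.61 without the 2 farthest arrays and 0.65 within slides. The dim probe AJ938991.1_316 had no pair among the 6 in SM. In LM it had the strongest pair, with BP443659.1_463, at r of 0.60 and rho of 0.60 (permutation p 1e-05 each), 0.60 without the 2 farthest arrays and 0.36 within slides. The 2 MLLT10 probes had r of -0.059 (permutation p 0.582) and rho of -0.055 (permutation p 0.608) in LM, and r of 0.12 (permutation p 0.264) and rho of 0.12 (permutation p 0.272) in SM. Their r within slides was -0.21 in LM and 0.15 in SM.

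Other chromatin genes were taken from a list of 135 symbols, of which the study's lists name 54 (64 probes, 62 called). Of all probes named in those lists 98.1% were called, and of all probes kept 83.5%. These too are named because the muscles differed. The mean was higher in LM for 36 genes and in SM for 18, where 48.5% of all genes named in the lists at hand were higher in LM. Readers and polycomb proteins were higher in LM for 16 of 19 genes, other remodellers and chaperones for 6 of 6, and other writers for 7 of 15. The largest differences toward LM were those of ARID4A (1.17), a partner of the retinoblastoma protein, the jumonji protein JMJD4 (1.04), the acetylase HAT1 (1.01), the remodeller INO80 (0.97) and the polycomb protein PHC3 (0.93), and with the index they were 0.98, 0.93, 0.80, 0.87 and 0.74. Those toward SM were GATAD2B (-1.22) of the NuRD complex, the corepressor NCOR1 (-0.97), the linker histone-like HP1BP3 (-0.79), the polycomb-like L3MBTL2 (-0.77) and the architectural protein HMGA1 (-0.64). With the index these 5 were -0.11, 1.09, 0.77, 0.66 and 1.19.

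Markers of other cells differed between the muscles beside the histones. Of 14 markers of cycling cells, 4 are named, and MCM2 (-0.68), MCM5 (-0.66) and PCNA (-0.60) were higher in SM while MKI67 (0.16) was higher in LM. With the C-rich index in the fit these values were -0.71, -0.78, -0.77 and -0.15, all toward SM. The mean of these 4 markers, each centred on its own mean, ran from -0.91 through -0.19 to 0.42 in LM and from -0.28 through 0.21 to 0.82 in SM. The corresponding mean of 3 adipocyte markers, all higher in SM, had a median of -0.64 in LM and 0.53 in SM, that of 2 endothelial markers -0.27 and 0.28, that of 2 fibroblast markers -0.31 and 0.33, and that of 3 macrophage markers -0.51 and 0.46. The macrophage markers did not go one way: SPI1, whose probe has 10 C, was -3.02 and CD14 -1.13, while CD68 was 0.40, and with the index they were -0.31, -0.82 and 0.65. The 12 probes of 6 fibre markers had a median of 0.24 in LM and -0.23 in SM, and 3 of these genes were higher in each muscle. Most of the 12 probes are of TTN and NEB, so these genes weigh most in that mean. The probes of TTN, NEB and CKM were higher in LM (0.30 to 1.38), and those of ACTA1 (-0.83 and -0.70), MYH1 (-0.57) and MB (-0.33) in SM. The part of the makeup of the muscles in the differences of the chromatin genes was not tested.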

How the data were processed

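Each of the 180 arrays (90 LM, 90 SM) was 1 single-colour (Cy3) Agilent array of 15744 spots, read by the authors with Feature Extraction 9.5.1.1 (44 LM arrays) or 9.5.3.1 (46 LM and 90 SM arrays), per the file headers. The deposited processed signal is an intensity on a linear scale, with background subtracted and no normalization between arrays. The deposited value table holds 6903 probes on the natural log scale, centred per array by the authors, and served as an alternative.

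After a log2 transform, each array was centred on its median over the probes of the first filter. Spots failing the criteria of intensity over background, uniformity or saturation became missing values. Probes were dropped when over 50% of either muscle's arrays had no value, and 7434 values beyond 3 SD of the probe mean were removed. This left 10987 probes with 3.07% of their values missing. Precision depends on how many arrays of a muscle gave a value. The study's own model had further terms (sex, batches, carcass weight) that are absent from the labels.

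Muscles were compared with lmFit and eBayes of limma 3.58.1 (R 4.3.3, statmod 1.5.0), adjusted by Benjamini and Hochberg over all probes kept, and a probe was called at 0.05. The pig effect was a limma-moderated F test beside muscle, and the slide effect a limma F test on slides with 3 or more arrays. Correlations had 100000 two-sided permutations (2000 for the share over all probes) and were not adjusted. Tables and plots were made in Python 3.11.15 (matplotlib 3.10.9, pandas 2.3.3, NumPy 2.4.6). On simulated data of 10987 probes with independent noise and 200 changed, 66.0% of changed probes were recovered for muscle, 95.0% for pig and 93.0% for slide within LM. Of the calls, 2.22%, 4.52% and 6.53% were false, the last above the 5% level. The change set for muscle was smaller than those for pig and slide, so these rates do not rank the tests. The simulated muscle data held no slide or scan day effect, so their false rate does not describe the measured contrast. Replicate numbers and pig names pair the 2 arrays of each pig, since both muscles come from the same animal.

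Named genes are those that met the rule, with all probes (1 of them is counted but not reported here), and up to 5 other chromatin genes in each direction. Members, lists and the index were chosen with earlier results of these data known. Columns of FC ratios and p values in the study's lists were not used. Genome positions of probes are not given, as no genome build is named in the sources used here.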

Additional observations from a re-analysis of the deposited data

How the results depend on the processing

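The 41 differences between the muscles were computed again under 13 alternatives. Under the 12 without the C-rich index, 479 of 492 values moved by less than the SD between arrays, 9 moved by more, and 4 changed sign. Of the 9, 8 came with normexp background correction. Among them were KDM6A (from 0.70 to 0.17), H2AFY2 (from 0.79 to 0.39), MLLT10 BP143118.1_464 (from 0.77 to 0.42) and SIRT7 (from 0.86 to 0.60). The changes of sign came with normexp background correction for MLLT10 CN165418.1_543 (-0.034), MLLT4 (-0.14) and SETD5 AJ938991.1_316 (-0.029), and on the 136 arrays of the shared software version for MLLT4 (-0.012). The cause was not tested. With the index, KDM6B (0.78), HIST1H1B (0.078) and MLL3 (0.040) changed sign, 10 others moved by more than the SD, and 9 of the 17 genes of SM were called higher in SM. With pig as a block, the pairing of the arrays, 9159 probes and 40 of the 41 were called and no difference among the 41 changed sign.

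Over all probes, the deposited table, which holds 6903 probes, gave 6027 calls (3162 higher in SM), and the table without a filter on dim probes gave 7310 calls higher in LM. The pig effect was called in 273 probes, and in 131 with quantile normalization, 856 with normexp, 157 with centring on the spots that passed (chosen after seeing the data) and 28 within slides. Of the 41, it was called in 1, and in 7 with normexp (7.81% of all probes tested), 2 in the deposited table and 0 within slides. With the index, slide was called in SM in 2656 probes, against 1541, and in 15 of the 41, against 9. The median difference over all probes was -0.068, and -0.11 with normexp and 0.087 with no filter on dim probes. Dim probes with many lost spots, MLL3, KATNA1, KDM6A, MLLT4 and 2 of SETD5, rest on fewer pigs.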

Other observations

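The arginine methylases, named here after their values were seen, were mostly higher in SM: PRMT7 (-0.64 on the log2 scale, LM minus SM), PRMT5 (-0.51), PRMT2 (-0.44) and PRMT1 (-0.33), while PRMT6 was 0.10. With the C-rich index in the fit the values were -0.59, -0.59, -0.40, -0.14 and 0.096. SMYD1, a methylase made in heart and skeletal muscle, had differences of -0.63 and -0.31 for its 2 probes, and -0.71 and -0.30 with the index. Probes with few C in the first 15 bases also moved with the index: NCOR1 has 1 such C and went from -0.97 to 1.09, and GATAD2B has 3 and went from -1.22 to -0.11, while HP1BP3, with 8, went from -0.79 to 0.77.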
